A study of Mus musculus with 2 samples.

Results

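The genes described here are the 9 genes of retinoic acid synthesis and response Aldh1a1, Aldh1a2, Aldh1a3, Crabp1, Dhrs3, Cyp26b1, Rarb, Rarg and Rxra, taken as a named list out of 19430 genes measured in the mouse colon in either of 2 single-cell libraries. All 9 genes were listed in the wild-type library (17809 genes) and 8 in the reporter library (15972 genes), where Crabp1 was absent from the table. The wild-type library (wt_colon) held colon cells of C57BL/6 mice, in which cells positive for EpCAM and negative for CD45 were mixed with cells negative for both. The reporter library (pdgfraegfp_colon) was gated on GFP from mesenchyme of Pdgfra-H2B-eGFP animals, in which a nuclear GFP is driven from the Pdgfra locus, and so selected cells with Pdgfra activity. Each library pooled cells of 3 female mice of 8 to 12 weeks, without treatment, and was made with a 3′ kit, version 3 for the wild-type and version 2 for the reporter cells. With 1 library per group and no map from cells to mice there was no replicate, so no test was run and no p-value is given. Genotype, gate and kit changed together and cannot be told apart, so levels were compared within a library and only ratios were set side by side.

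Values are corrected counts, the UMI counts that the authors adjusted with SCTransform to a common depth, and a level is their average over the cells of a class. Totals were 6120 to 16389 per cell in 7495 wild-type cells and 2314 to 4432 in 4409 reporter cells. Shares of cells above 0 carry exact 95% binomial (Clopper-Pearson) intervals, which cover counting error only and not differences between mice. Because the kits read 3′ ends and depth was adjusted, levels are compared between classes for 1 gene and not between genes. Cells were clustered without the 9 genes and without 59 other retinoid genes, and clusters were named with the ending “-like” from lists of other markers. The wild-type library gave 15 named classes, among them crypt top fibroblasts (CTFs, 833 cells), 2 classes of crypt bottom fibroblasts (CBFs1, 1121 cells, and CBFs2, 507 cells), together called fibroblast-like cells (2461), and 5 epithelial classes (2480 cells). One epithelial class, led by Krt36 (378 cells), was given no type. The reporter library gave 520 CTFs-like, 2874 CBFs1-like and 850 CBFs2-like cells, with 51 epithelial and 114 immune-like cells despite the gate. Of the reporter CBFs1-like cells, 1099 led by Sbno2 and Tnfaip3 fit the name weakly, with 3 of 8 CBFs1 markers above the fold set for naming and a median log2 fold of 0.23 over the mean of the fibroblast clusters. Markers of the wrong compartment were seen at a low level in the wild-type library. The 10 fibroblast markers had in epithelial cells 0.870% to 1.56% of their fibroblast level, and Dcn was above 0 in 5.60% of epithelial cells. The 8 epithelial markers had in fibroblasts 2.14% to 3.02% of their epithelial level, and Epcam was above 0 in 38.2% of fibroblast-like cells. The libraries shared 1 cell barcode.

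Retinoic acid is made from dietary vitamin A: retinol is oxidized to retinal, and retinal is oxidized irreversibly to retinoic acid by the retinaldehyde dehydrogenases Aldh1a1, Aldh1a2 and Aldh1a3. Dhrs3 turns retinal back into retinol, Crabp1 binds retinoic acid in the cytosol, and Cyp26b1 hydroxylates it for removal. Inside the nucleus retinoic acid binds receptors such as Rarb and Rarg, which act on DNA as dimers with Rxra, and in the gut it is known for imprinting gut homing on lymphocytes and for shaping epithelial differentiation.

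Rarb is itself a textbook target of these receptors, through a direct repeat of hexamers in its promoter. Its sequence is shown because it links the receptors of the list to a gene of the list. The window below is the 150 bases before the transcription start in RefSeq (mouse GRCm38.p6, chr14:16575477-16575626, minus strand), with the 2 hexamers of the repeat in capitals, 53 to 37 bases before the start.
Rarb: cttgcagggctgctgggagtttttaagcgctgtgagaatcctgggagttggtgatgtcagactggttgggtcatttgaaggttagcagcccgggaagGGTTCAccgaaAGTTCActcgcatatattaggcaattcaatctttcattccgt
The hexamers searched were AGGTCA (the consensus) and its variants with one changed base, AGTTCA (found here) besides GGGTCA (also common), or both changes, GGTTCA (found here), on both strands, in direct repeats spaced by 1, 2 or 5 bases, over windows of 300 bases around the start. RefSeq had 13 such windows for 8 of the genes, and Aldh1a3 had no entry. A repeat spaced by 5 bases was found in the Rarb window and in 0.0974% of 32851 mouse promoter windows. None of the other 12 windows held a repeat of any of the 3 spacings, which were seen in 0.222% (1 base) and 0.268% (2 bases) of all windows. Single hexamers stood in 4 of the 13 windows, those of Aldh1a1, Rarb, Rarg and Rxra, against 43.7% of all windows. These matches describe the letters of the windows and not binding.

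The genes were first compared between compartments in the wild-type library. Of 8 genes with a mean of at least 0.02 in either compartment, 7 were more than 2-fold higher in fibroblast-like than in epithelial cells, where 17.8% of 13606 genes were, and none was 2-fold lower, where 35.3% of all genes were. Aldh1a2 differed most on the log2 scale, with a mean of 0.330 in fibroblast-like and 0.00968 in epithelial cells. Its log2 ratio was 4.11 with a pseudocount of 0.01, which is used for all log2 ratios here, and the ratio of the means themselves was 34.1. The log2 ratio was 2.68 for Aldh1a1, 2.49 for Aldh1a3 and 2.36 for Rarg. Those of Cyp26b1 (1.63), Dhrs3 (1.61) and Rarb (1.5) were smaller, and Rxra had about the same mean in fibroblast-like (0.153) and epithelial cells (0.167), a log2 ratio of -0.11. The median over all genes was -0.50, so Rxra lay above the median gene. Crabp1 had 2 corrected counts in fibroblast-like and 3 in epithelial cells, and no ratio was drawn from them. For the 7 higher genes, the epithelial level was 2.94% (Aldh1a2) to 31.8% (Dhrs3) of the fibroblast level. Each was higher than the 0.870% to 1.56% of the fibroblast markers. Aldh1a3, Dhrs3, Cyp26b1 and Rarb had their highest class means outside the fibroblasts, so this range does not gauge RNA carried over from those classes. Cyp26b1 had 0.500 in blood endothelial-like and 0.00323 in epithelial cells. Rarb had 0.333 in lymphatic endothelial-like and 0.00202 in epithelial cells. The part of carried-over RNA in the epithelial values was not tested beyond this. When each cell was thinned to 1000 corrected counts, the ratios of Cyp26b1 and Rarb were 0.36 and 0.31, but the pseudocount then exceeded their means, which were 0.00284 and 0.00244 in fibroblast-like cells, with no count left in epithelial cells. Without cells above 10% mitochondrial counts, the ratio of Aldh1a1 was 3.71 and that of Rxra turned to 0.53. The median mitochondrial share was 12.5% in enterocyte-like cells, the highest among the epithelial classes.

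**Figure D1:**
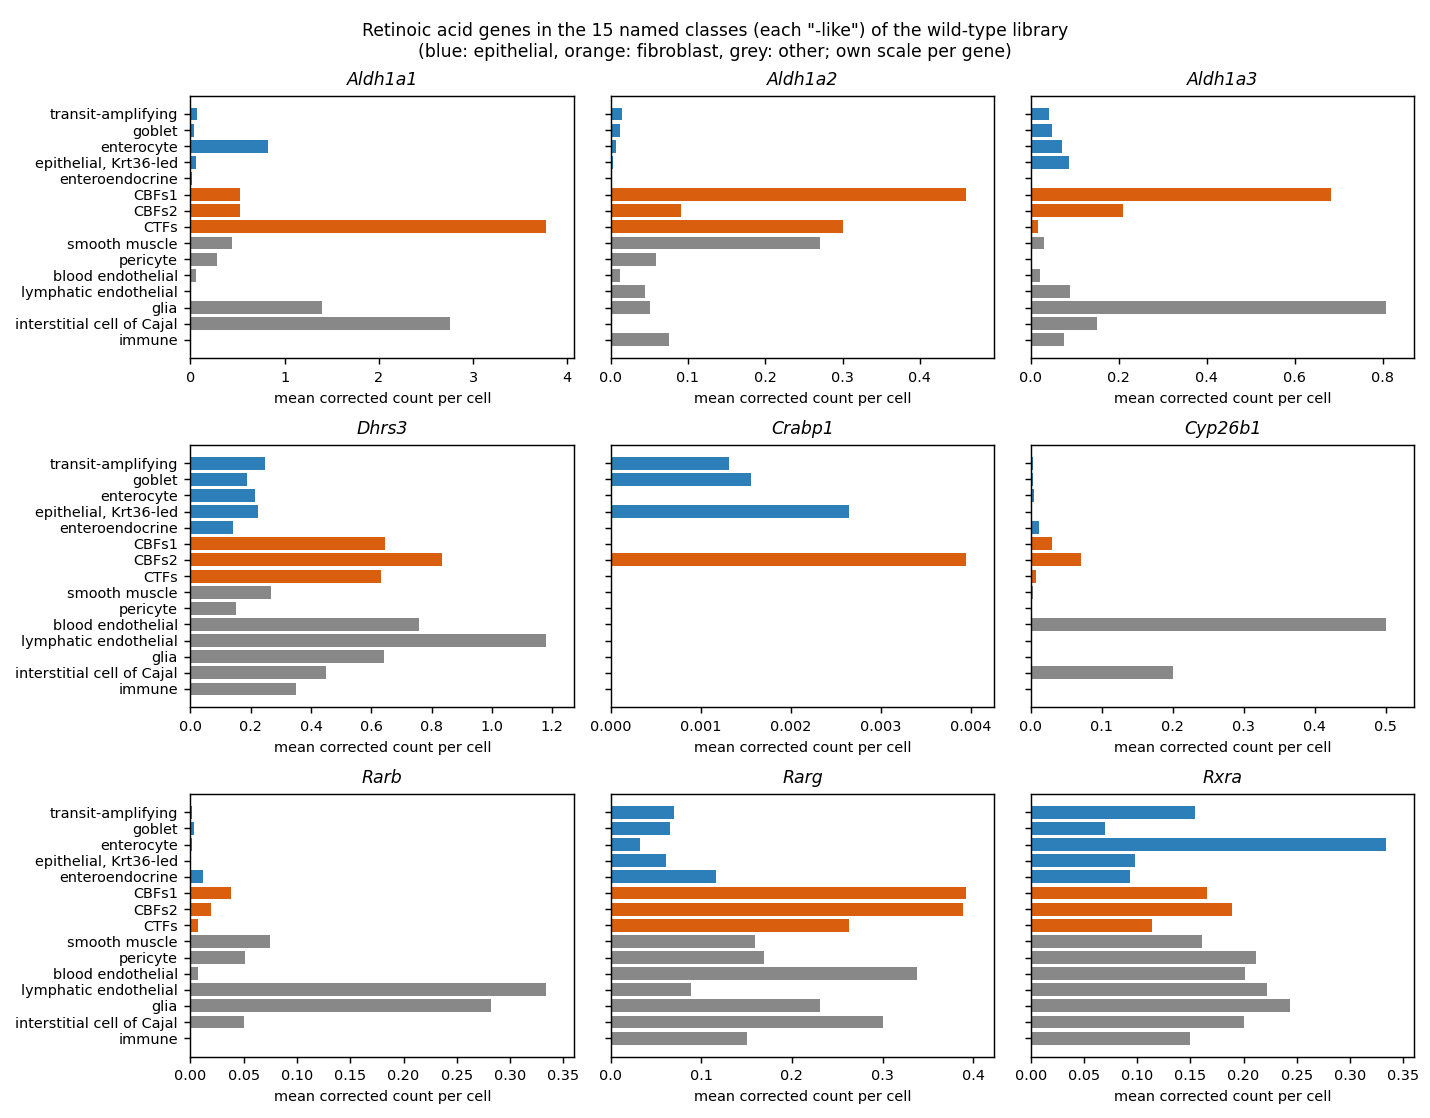
Mean corrected count of the 9 genes per cell (horizontal axis, own scale per gene) in the 15 named classes of the wild-type library (vertical axis), with epithelial classes in blue, fibroblast classes in orange and other classes in grey. Aldh1a1 peaked in CTFs at 3.77, Aldh1a3 in glia at 0.808 and CBFs1 at 0.683, Cyp26b1 in blood endothelial cells at 0.500 and Rxra in enterocytes at 0.334, while Crabp1 rested on 5 counts in all.

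Aldh1a1 (chromosome 19, 20492715 to 20643465, plus strand, GRCm38) is the member of the family that is widespread in adult epithelia. It was the highest in CTFs-like cells, with a mean of 3.77 and a value above 0 in 86.1% of 833 cells (83.5% to 88.4%). Interstitial cell of Cajal-like cells, of which there were 20, followed with 2.75 and 80.0% (56.3% to 94.3%), an interval that overlapped that of CTFs-like cells. Glia-like cells had a mean of 1.40, which came from 26.9% of their 78 cells. Both crypt bottom classes were alike and far lower. The mean was 0.525 in CBFs1-like cells (34.0% above 0, 31.2% to 36.8%). It was 0.527 in CBFs2-like cells (34.3%, 30.2% to 38.6%), and the intervals overlapped. Enterocyte-like cells stood between these and glia, with a mean of 0.823 and 36.5% above 0 (32.7% to 40.4%), overlapping CBFs2-like cells in their share. Smooth muscle-like cells had 0.440 and pericyte-like cells 0.280. All other epithelial classes were low, from 0.0116 in enteroendocrine-like to 0.0711 in transit-amplifying-like cells, as were blood endothelial-like cells (0.0625). No count was seen in 45 lymphatic endothelial-like and 40 immune-like cells, which, at a limit of 3 counts, allows shares of up to 6.67% and 7.50%. CTFs-like cells were also highest in the reporter library, with 0.812 (51% above 0, 46.6% to 55.3%), against 0.153 in CBFs1-like (13.6%, 12.4% to 14.9%) and 0.128 in CBFs2-like cells (10.8%, 8.81% to 13.1%). With each cell thinned to 1000 corrected counts, 35.4% of wild-type and 21.5% of reporter CTFs-like cells still had Aldh1a1 above 0, and no CBFs-like class was above 5.17%. Finer clustering (resolution 0.8) split the wild-type CTFs-like cells, with a mean of 4.31 (88.0% above 0) in 616 cells led by Fam180a, Cybrd1 and Sox6 and of 2.24 (80.8%) in 219 cells led by Lpar3, Dmp1 and Trpa1. Its close paralog Aldh1a7 could share reads with Aldh1a1. Aldh1a7 had no count in fibroblast-like cells and a mean of 0.178 in enterocyte-like cells.

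Aldh1a2 (chromosome 9, 71215789 to 71296243, plus strand) is the main retinaldehyde dehydrogenase of the embryo. Its level was highest in CBFs1-like cells, with a mean of 0.459 and 27.7% of cells above 0 (25.1% to 30.4%). CTFs-like cells followed with 0.30 and 19.0% (16.4% to 21.8%), and smooth muscle-like cells with 0.271 and 17.5% (15.1% to 20.1%). The intervals of these last 2 classes overlapped each other but not that of CBFs1-like cells. CBFs2-like cells were well below, at 0.0907 and 6.11% (4.19% to 8.57%). The epithelial classes were at or close to the floor, from 0 in 86 enteroendocrine-like cells to 0.0145 in transit-amplifying-like cells (1.19% above 0). The other stromal classes lay between 0 in interstitial cell of Cajal-like and 0.0750 in immune-like cells. Among reporter cells, the mean was 0.0912 in CBFs1-like (8.18%, 7.20% to 9.24%), 0.0612 in CBFs2-like (4.71%, 3.38% to 6.35%) and 0.0269 in CTFs-like cells (2.69%, 1.48% to 4.48%). The CTFs-like cells thus ranked second in one library and last in the other. The finer CTFs-like clusters of the wild-type library differed, with a mean of 0.390 (24.4% above 0, 21% to 27.9%) in the 616 Fam180a-led and of 0.0457 (3.65%, 1.59% to 7.07%) in the 219 Lpar3-led cells.

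Aldh1a3 (chromosome 7, 66390890 to 66427517, minus strand) is known from the eye and nasal region. Among fibroblasts it was lowest in CTFs-like cells, where Aldh1a1 was highest, and unlike Aldh1a1 it differed between both crypt bottom classes. The mean was 0.683 in CBFs1-like cells, with 34.5% above 0 (31.7% to 37.4%). In CBFs2-like cells it was 0.209, with 14.4% (11.5% to 17.8%). In CTFs-like cells it was 0.0168, with 11 of 833 cells above 0 (1.32%, 0.661% to 2.35%). That level was lower than in 4 of the 5 epithelial classes, whose means ran from 0.0408 in transit-amplifying-like to 0.0873 in the Krt36-led class, with no count in enteroendocrine-like cells. Glia-like cells had the highest mean, 0.808, with 44.9% of 78 cells above 0 (33.6% to 56.6%), an interval that overlapped that of CBFs1-like cells. The reporter cells showed the same order, with 0.227 in CBFs1-like (17.6%, 16.2% to 19.0%), 0.105 in CBFs2-like (7.53%, 5.85% to 9.51%) and 0.00962 in CTFs-like cells (5 of 520 cells, 0.962%). At the finer resolution the wild-type CBFs1-like cells differed among themselves. The mean was 0.948 in 324 cells led by Kcnk2, Adamtsl2 and Frzb and 0.577 in 795 cells led by Sfrp2 and Stmn2.

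**Figure D2:**
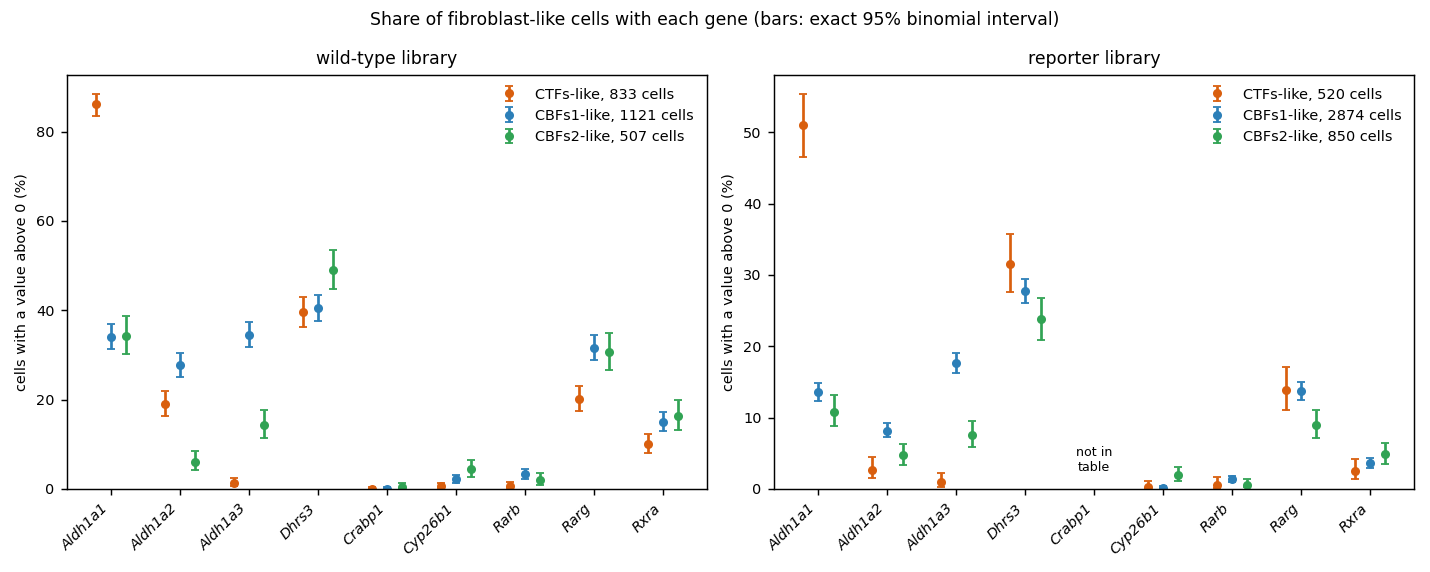
Share of cells with a value above 0 (vertical axis, %) for each gene (horizontal axis) in CTFs-like, CBFs1-like and CBFs2-like cells of the wild-type library (left) and the reporter library (right), with exact 95% binomial intervals as bars. Aldh1a1 stood highest in CTFs-like cells of both libraries (86.1% and 51%), and Aldh1a3 was highest in CBFs1-like cells (34.5% and 17.6%) and near 0 in CTFs-like cells.

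Dhrs3 (chromosome 4, 144892827 to 144928209, plus strand), which lowers retinal and is itself induced by retinoic acid, was spread over all classes. Lymphatic endothelial-like cells had the highest mean, 1.18, with 42.2% of 45 cells above 0 (27.7% to 57.8%). Among fibroblasts it was 0.832 in CBFs2-like (49.1%, 44.7% to 53.6%), 0.645 in CBFs1-like (40.5%, 37.6% to 43.4%) and 0.630 in CTFs-like cells (39.5%, 36.2% to 42.9%). The share in CBFs2-like cells lay above the intervals of the other fibroblast classes, which overlapped. Blood endothelial-like cells (0.757) and glia-like cells (0.641) had similar means. Epithelial classes ran from 0.140 in enteroendocrine-like to 0.246 in transit-amplifying-like cells, and neighbours in that order overlapped in their intervals. Reporter fibroblasts were at 0.402 in CTFs-like (31.5%, 27.6% to 35.7%), 0.349 in CBFs1-like (27.7%, 26.1% to 29.4%) and 0.331 in CBFs2-like cells (23.8%, 20.9% to 26.8%). The intervals of CTFs-like and CBFs2-like cells did not overlap. CBFs2-like cells were thus the highest of the fibroblast classes in the wild-type library and below CTFs-like cells in the reporter library. Their order against CBFs1-like cells was not settled in the reporter library, where the intervals of these classes overlapped. On thinning, the mean there was 0.107 in CBFs2-like and 0.103 in CBFs1-like cells, against 0.135 in CTFs-like cells.

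Crabp1 (chromosome 9, 54764748 to 54773110, plus strand) was nearly absent. It had 5 corrected counts in all, 1 each in transit-amplifying-like, goblet-like and Krt36-led cells and 2 in CBFs2-like cells, and none in the other 11 classes. No count in 833 CTFs-like cells allows a share of up to 0.360% at the limit of 3 counts.

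Cyp26b1 (chromosome 6, 84571414 to 84593908, minus strand), the retinoic acid hydroxylase of the list, was highest outside both compartments. Its mean was 0.500 in blood endothelial-like cells, with 23.0% above 0 (19.6% to 26.6%). Within them it was 0.918 in 98 cells led by Selp and Madcam1, markers of venules, and 0.417 in 494 cells led by Esm1 and Kdr. Both fibroblast classes of the crypt bottom had more than CTFs-like cells. The mean was 0.0710 in CBFs2-like (4.34%, 2.74% to 6.50%), 0.0303 in CBFs1-like (2.14%, 1.38% to 3.17%) and 0.00720 in CTFs-like cells (0.600%, 0.195% to 1.40%). An unnamed cluster of 99 cells led by Notch3, Ndufa4l2 and Heyl had 0.384 (25.3%). Its median of 3851 genes per cell was the highest of the wild-type clusters, against 2102 in pericyte-like and 2052 in blood endothelial-like cells. Whether it held mixed cells was not tested. The 2480 epithelial cells held 8 corrected counts together. In the reporter library, which held no endothelial class, the means were 0.0235 in CBFs2-like (20 counts), 0.00244 in CBFs1-like (7 counts) and 0.00192 in CTFs-like cells (1 count).

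Of the receptors, Rarb (chromosome 14, 16430839 to 16819156, minus strand) was sparse. The highest means were 0.333 in lymphatic endothelial-like (22.2% of 45 cells, 11.2% to 37.1%) and 0.282 in glia-like cells (19.2% of 78 cells, 11.2% to 29.7%), with overlapping intervals. Smooth muscle-like cells followed with 0.0749 (6.86%, 5.33% to 8.66%). Among fibroblasts it was 0.0384 in CBFs1-like (3.21%), 0.0197 in CBFs2-like (1.97%) and 0.00720 in CTFs-like cells (0.720%), and epithelial cells held 5 corrected counts. Reporter cells had the same highest class, with 0.0143 in CBFs1-like, 0.00588 in CBFs2-like and 0.00577 in CTFs-like cells. Top2b overlaps Rarb on the opposite strand, and whether the counting used strand was not given in the sources used here.

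Rarg (chromosome 15, 102234938 to 102257517, minus strand) was found in stroma more than in epithelium. Its mean was 0.392 in CBFs1-like (31.6%, 28.9% to 34.4%) and 0.389 in CBFs2-like cells (30.6%, 26.6% to 34.8%), which overlapped. CTFs-like cells had 0.263 (20.2%, 17.5% to 23.1%), below both intervals, and blood endothelial-like cells 0.338 (21.8%). The unnamed Notch3-led cluster of 99 cells, with the most genes per cell (median 3851), had a higher mean than each named class, 0.556 (45.5%, 35.4% to 55.8%). Epithelial classes were lower, from 0.0324 in enterocyte-like to 0.116 in enteroendocrine-like cells. In the reporter library the CTFs-like cells (0.148, 13.8%) and the CBFs1-like cells (0.151, 13.7%) had overlapping intervals, and CBFs2-like cells had 0.104 (8.94%).

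Rxra (chromosome 2, 27676440 to 27762957, plus strand), the shared dimer partner, was the only gene of the list whose highest mean among the named classes was epithelial. The unnamed cluster of 99 cells led by Notch3, with the most genes per cell, was higher still, at 0.434 and 36.4% (26.9% to 46.6%). Enterocyte-like cells had 0.334 and 28.0% above 0 (24.5% to 31.8%), followed by glia-like cells with 0.244 and 19.2% (11.2% to 29.7%), whose intervals overlapped. Goblet-like cells had the lowest mean of the 15 classes, 0.0703 (6.56%, 4.77% to 8.77%). Fibroblasts lay between, with 0.189 in CBFs2-like, 0.166 in CBFs1-like and 0.114 in CTFs-like cells. Reporter fibroblasts ran from 0.0269 in CTFs-like to 0.0541 in CBFs2-like cells.

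The study set crypt top against crypt bottom fibroblasts, and the same contrast was made for the list with both CBFs-like classes joined. In the wild-type library Aldh1a1 was higher in CTFs-like cells, with means of 3.77 and 0.525 and a log2 ratio of 2.82. It was 1 of 8 genes past 2-fold in that direction, against 5.44% of 11907 genes. Aldh1a3 (-4.35), Cyp26b1 (-1.62) and Rarb (-1.31) were lower, 3 of 8 genes against 8.58% of all. The ratio for Aldh1a3 came from means of 0.0168 and 0.536. Aldh1a2 (-0.19), Dhrs3 (-0.16), Rarg (-0.55) and Rxra (-0.56) were within 2-fold, and the median of all genes was -0.08. The calls for Cyp26b1 and Rarb rested on 6 counts each in CTFs-like cells and were lost on thinning, at -0.29 and -0.22, and with a pseudocount of 0.1, at -0.42 and -0.31. The thinned means themselves were below the pseudocount of 0.01 and kept their order, at 0.00120 in CTFs-like cells for both genes, against 0.00369 for Cyp26b1 and 0.00307 for Rarb in CBFs-like cells. Those for Aldh1a1 and Aldh1a3 held under each alternative in this library.

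In the reporter library Aldh1a1 was again higher in CTFs-like cells, with means of 0.812 and 0.147 and a log2 ratio of 2.39, 1 of 6 genes past the minimum against 4.88% of 10019 genes. Aldh1a3 (-3.42) and Aldh1a2 (-1.35) were lower, 2 of 6 against 6.72%. Dhrs3 (0.22), Rarg (0.07) and Rxra (-0.48) were within 2-fold, with a median of 0.09 over all genes. Cyp26b1 and Rarb had means under 0.02 in both classes and were not compared. The value for Aldh1a3 depended on which cells were called CTFs-like. With the listed genes kept in the clustering, a cluster of 236 cells led by Ptprr, Nrg1 and Cox4i2 took the name CTFs-like, with a mean Aldh1a3 of 0.496 (34.7% above 0) and a mean Aldh1a1 of 0.458 (38.6%), beside 521 cells led by Bmp3 and Tagln with 0.00960 and 0.816. The ratio was then -0.14 for Aldh1a3 and -0.90 for Aldh1a2. When fibroblast-like cells were instead gated on Wnt5a above 0 with Cd34 at 0 against the converse, the Aldh1a3 ratio was -0.88 in the reporter library (381 and 2362 cells) and -3.72 in the wild-type library (553 and 1222 cells). A few smooth muscle markers moved with this contrast. The summed mean of the list over 8 genes was 19.1 in CTFs-like and at most 1.86 in CBFs-like cells of the wild-type library, and 11.5 in CTFs-like and at most 0.637 in CBFs-like cells of the reporter library. In CTFs-like cells of both libraries 5 of the 8 had a mean below 0.1, as in CBFs1-like cells, and none was at 0. Their part in the ratios was not tested. The 8 epithelial markers summed to 5.67 in CTFs-like and at most 4.38 in CBFs-like cells of the wild-type library and to at most 0.142 in the reporter classes. The 8 immune markers summed to between 0.107 and 0.244 in every fibroblast class of both libraries, each below 0.1 in the wild-type classes.

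Between both crypt bottom classes, Aldh1a2 (log2 ratio of CBFs2-like over CBFs1-like cells -2.22) and Aldh1a3 (-1.66) were lower in CBFs2-like cells of the wild-type library, 2 of 8 genes against 4.21% of 11951. Cyp26b1 (1.01) was higher, 1 of 8 against 7.36%, while Aldh1a1 (0.01) and Rarg (-0.01) hardly differed. Dhrs3 (0.36), Rxra (0.18) and Rarb (-0.70) were within 2-fold, and the median of all genes was 0.08. In the reporter library Aldh1a3 (-1.05) was lower, 1 of 7 against 6.77% of 9871, and Cyp26b1 (1.43) higher, 1 of 7 against 3.83%. Aldh1a2 was within 2-fold there at -0.51, as were Aldh1a1 (-0.24), Dhrs3 (-0.07), Rarg (-0.51) and Rxra (0.43), where the median of all genes was -0.24. The Cyp26b1 call was lost on thinning in both libraries, at 0.04 and 0.91, where the pseudocount exceeded all thinned means. These were 0.00395 in CBFs2-like and 0.00357 in CBFs1-like cells of the wild-type library, and 0.00941 and 0.000348 in the reporter library. The call for Aldh1a3 in the reporter library was at -0.77 without the 780 cells led by Nrg1 and Cxcl9. These 780 cells had the highest Aldh1a3 of the CBFs1-like clusters (0.338), and also the highest Dhrs3 (0.551) and Aldh1a1 (0.217). Their median was 1858.5 genes per cell, against 1242 and 1378 in the other CBFs1-like clusters, and the part of this was not tested. The mesothelial markers were at 0 for 4 of 5 genes in wild-type CTFs-like and CBFs1-like cells and summed to 0.146 in CBFs2-like cells, where none was at 0, and their part was not tested.

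**Figure D3:**
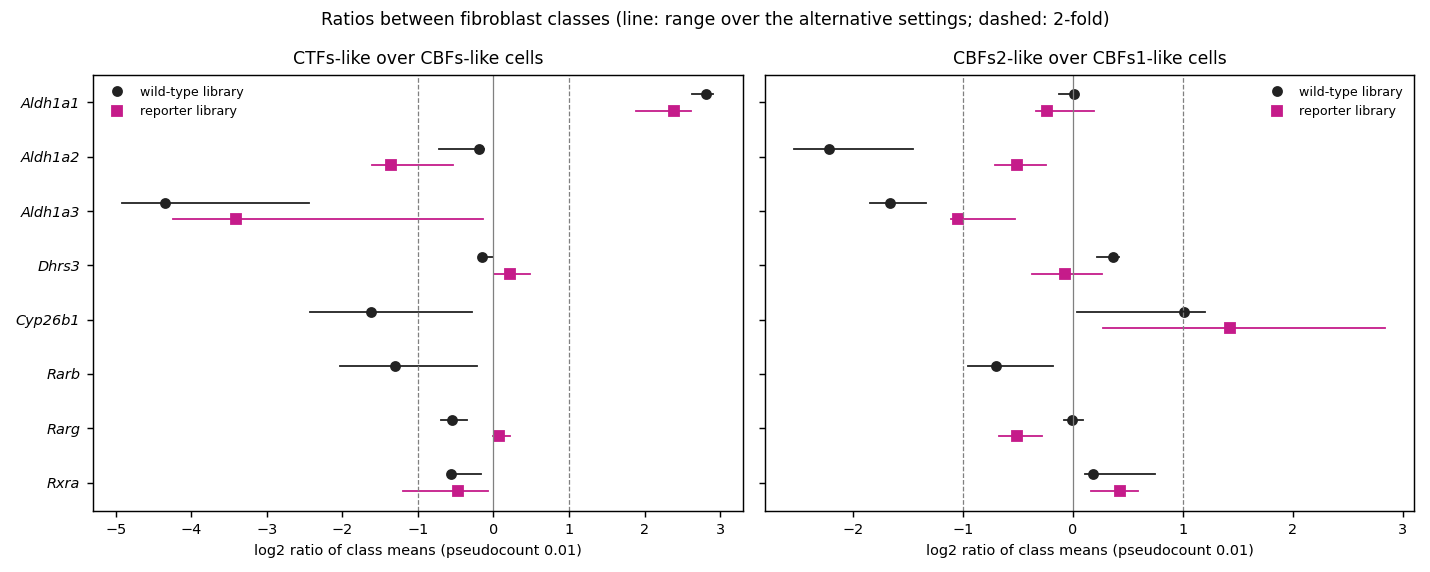
Log2 ratio of class means with a pseudocount of 0.01 (horizontal axis) for each gene (vertical axis), CTFs-like over CBFs-like cells on the left and CBFs2-like over CBFs1-like cells on the right, in the wild-type library (circles) and the reporter library (squares). Lines give the range over the alternative settings and dashed lines mark 2-fold: Aldh1a1 lay at 2.82 and 2.39 on the left, and the reporter value for Aldh1a3 reached -0.14 at its upper end.

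The reporter gate selects on Pdgfra, so fibroblast-like cells were also split by their own corrected count of Pdgfra, a growth factor receptor known to be high in crypt top fibroblasts. In wild-type cells Aldh1a1 had a mean of 0.635 in 337 cells at 0 Pdgfra, 0.666 in 781 cells at 1 to 2 and 2.43 in 1343 cells at 3 or more. In reporter cells it had 0.173 in 2920 cells, 0.312 in 1181 cells and 0.678 in 143 cells. The log2 ratio of the highest over the lowest set was 1.92 and 1.91. Aldh1a1 was the 1 gene of the list more than 2-fold higher in each library, against 5.25% and 6.58% of all genes. The same Pdgfra counts bounded the sets in both libraries, although median totals per cell were 8972 and 3150 corrected counts. The sets are thus not matched between the libraries in Pdgfra level. Aldh1a3 was lower in the highest set, at -1.09 in wild-type cells (1 of 8 genes, against 1.01%), and at -0.70 in reporter cells. Aldh1a2 was at -0.32 in wild-type and at -1.98 in reporter cells (1 of 7 genes, against 4.88%), where the highest set held 2 counts. The other genes that were compared were within 2-fold. Crabp1 in wild-type cells and Rarb in reporter cells had means under 0.02 in both sets and were not compared. CTFs-like cells were 8.01%, 7.55% and 55.6% of the 3 sets in the wild-type library and 7.05%, 20.1% and 53.8% in the reporter library, so the sets and the classes were not independent.

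**Figure D4:**
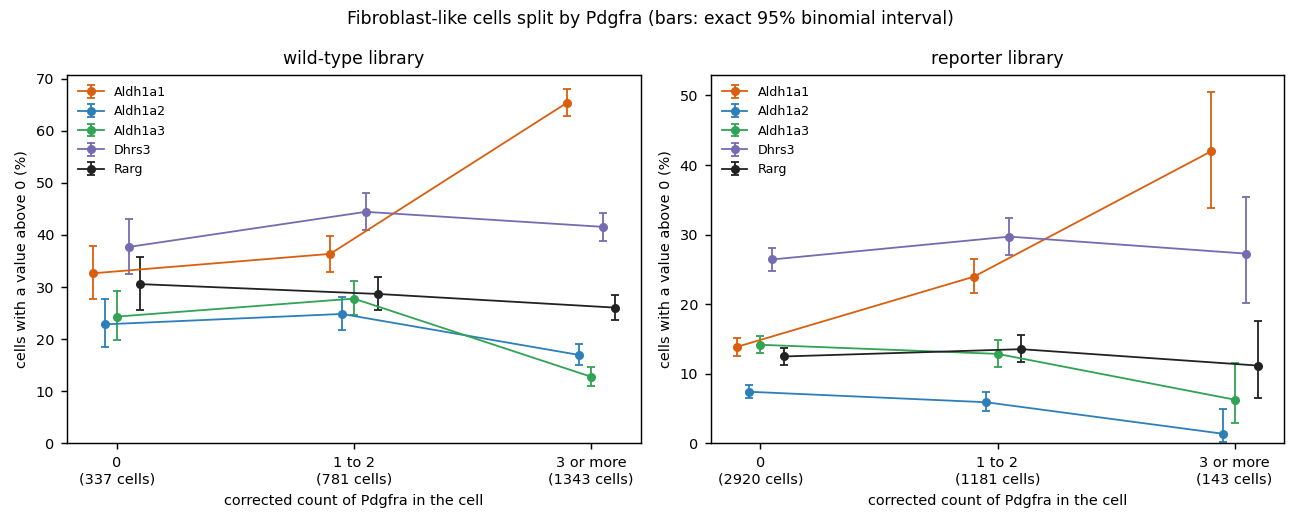
Share of fibroblast-like cells with a value above 0 (vertical axis, %) for Aldh1a1, Aldh1a2, Aldh1a3, Dhrs3 and Rarg, by the corrected count of Pdgfra in the cell (horizontal axis), in the wild-type (left) and reporter library (right), with exact 95% binomial intervals. Aldh1a1 went from 32.6% at 0 to 65.4% at 3 or more among wild-type cells and from 13.9% to 42% among reporter cells, while Dhrs3 and Rarg stayed level.

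Each epithelial class was then set against the other epithelial cells of the wild-type library, for the 5 genes that passed the minimum, since Aldh1a2, Crabp1, Cyp26b1 and Rarb did not. In enterocyte-like cells Aldh1a1 (log2 ratio 3.72, means 0.823 and 0.0531) and Rxra (1.51, means 0.334 and 0.111) were higher, 2 of 5 against 7.71% of genes, and none was 2-fold lower (29.1%), with a median of -0.51 over all genes. Rarg was at -0.89 there, Aldh1a3 at 0.41 and Dhrs3 at -0.02. Aldh1a1 and Rxra parted within the class. Of its clusters, 405 cells led by Sptssb, Cyp2c55 and Car1 had a mean Aldh1a1 of 1.19 (51.9% above 0, 46.9% to 56.8%), and 212 cells led by Atp12a, Saa1 and Fxyd4 had 0.123 (7.08%, 4.01% to 11.4%). Rxra was alike in these clusters, at 0.343 (28.4%) and 0.316 (27.4%). Aldh1a1 was lower in each other class, with log2 ratios of -2.83 in goblet-like, -2.03 in transit-amplifying-like and -2.14 in Krt36-led cells. The comparison cells of each included the enterocyte-like cells, which held 508 of the 607 corrected counts of Aldh1a1 in epithelial cells. These ratios were thus set largely by that class and do not order the remaining classes. In enteroendocrine-like cells 1 count was seen, a ratio of means of 0.0459 with a counting interval of 0.00116 to 0.257. Goblet-like cells were also lower in Rxra (-1.39), of which enterocyte-like cells held 206 of the 413 epithelial counts. The genes past 2-fold in the lower direction were 2 of 5 in goblet-like (12.6% of all genes), 1 of 5 in transit-amplifying-like (11.3%), 1 of 5 in Krt36-led (11.8%) and 2 of 5 in enteroendocrine-like cells (16.4%), of which Aldh1a3 passed only through the pseudocount. None of the 5 was 2-fold higher in goblet-like (10.1% of all genes), transit-amplifying-like (11.8%), Krt36-led (1.98%) or enteroendocrine-like cells (25.7%). Aldh1a3 had 0 counts in these 86 cells, and against a floor of 3 counts over the class it was at least 1.66-fold lower, which is short of 2-fold. Without cells above 10% mitochondrial counts the ratios of Aldh1a1 were -1.75 in goblet-like, -0.72 in transit-amplifying-like and -0.77 in Krt36-led cells, and that of Rxra in goblet-like cells was -0.95, so that 4 calls came down to 1. In enteroendocrine-like cells both calls were lost on thinning, at -0.63 for Aldh1a1 and -0.77 for Aldh1a3. The finer clustering gave a stem-like cluster of 483 cells with Lgr5 among its leading genes, where Aldh1a1 had a mean of 0.0538 and Rxra of 0.166.

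**Figure D5:**
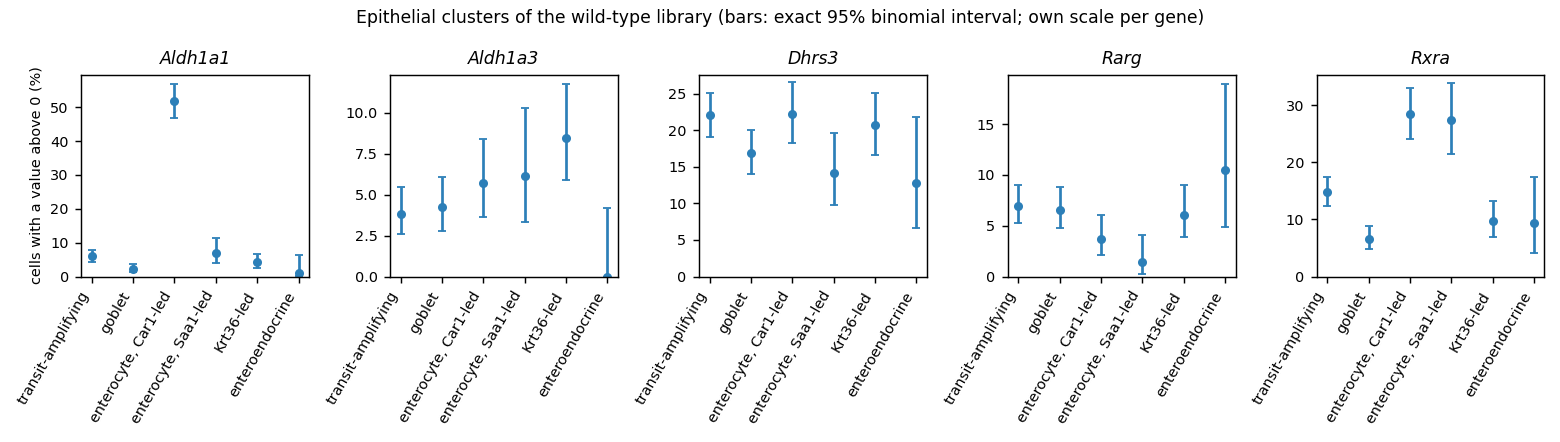
Share of cells with a value above 0 (vertical axis, %, own scale per gene) for the 5 genes that passed the minimum in epithelial cells, by cluster of the wild-type library (horizontal axis), with exact 95% binomial intervals. The Car1-led enterocyte-like cluster stood out for Aldh1a1 (51.9%, against 7.08% in the Saa1-led cluster), and both enterocyte-like clusters for Rxra (28.4% and 27.4%).

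The 3 dehydrogenases were also counted together per cell. At least 1 of them was above 0 in 87.4% of CTFs-like (84.9% to 89.6%), 69.6% of CBFs1-like (66.8% to 72.3%) and 46.5% of CBFs2-like cells (42.1% to 51%) of the wild-type library. In epithelial cells this share was 17.1%, from 7.19% in goblet-like to 41.0% in enterocyte-like cells. Cells with more than 1 of them above 0 made up 23.9% of CBFs1-like (21.4% to 26.5%), 18.2% of CTFs-like (15.7% to 21%) and 7.50% of CBFs2-like cells (5.36% to 10.1%). In the reporter library the order for at least 1 was the same, at 51.9%, 34.2% and 20.5%. A dehydrogenase together with Dhrs3 was above 0 in 35.8% of CTFs-like, 28.5% of CBFs1-like and 22.1% of CBFs2-like cells, and in 3.79% of epithelial cells of the wild-type library. Dhrs3 by itself was above 0 in 39.5%, 40.5%, 49.1% and 19.5% of these. Whether the joint shares differed from those given by the separate shares was not tested.

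Of 59 other retinoid genes on a list fixed by role, 54 were listed for wild-type cells and 44 for reporter cells. Between compartments 47 could be compared, of which 12 were higher (17.8% of all genes) and 17 lower (35.3%) in fibroblast-like cells, with a median log2 ratio of -0.62. Of the genes of retinol uptake, transport and esterification 2 of 10 were higher and 5 lower in fibroblasts, and of the retinol and retinal oxidoreductases 2 of 14 higher and 5 lower. Lower in fibroblasts were Aldh1b1 (-5.35), a mitochondrial aldehyde dehydrogenase, Aldh1l1 (-4.69), which acts on folate, and Isx (-4.56), an intestinal transcription factor that represses vitamin A uptake. Of the genes known to respond to retinoic acid, 7 of 9 were higher in fibroblasts, led by Rarres2 (6.65), which encodes chemerin, Meis2 (5.43), a homeobox gene, and Tgm2 (5.20), a transglutaminase. This group had a median of 3.75.

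Within fibroblasts the list was also set between crypt top and bottom. In CTFs-like over CBFs-like wild-type cells, 4 of 37 genes were higher (5.44% of all genes) and 8 lower (8.58%), with a median of -0.11. Higher were Rarres1 (2.89), Rbp4 (2.62), the retinol carrier of blood, and Akr1b8 (2.16), an aldo-keto reductase. Of 9 genes known to respond to retinoic acid, Rarres1 was the only 1 higher and 4 were lower, with a median of -0.34. Among those lower were the alcohol dehydrogenases Adh1 (-2.96) and Adh7, which had no count in 833 CTFs-like cells and was at least 14.8-fold lower against a floor of 3 counts over the class. In reporter cells 4 of 32 were higher (4.88% of all genes) and 5 lower (6.72%), with a median of -0.03. Rbp4 (2.81), Bco1 (2.41), which cleaves carotene, and Akr1b8 (1.53) were higher, and Adh1 (-3.56) and the nuclear receptor Nr2f1 (-2.50) were among those lower. Of 8 response genes compared there, none was higher and 2 were lower, with a median of -0.55. Between CBFs2-like and CBFs1-like cells, 3 of 37 genes were higher (7.36% of all genes) and 6 lower (4.21%) in the wild-type library, with a median of -0.01. Among reporter cells 3 of 31 were higher (3.83%) and 8 lower (6.77%), with a median of -0.36. Among the higher genes of both libraries were the homeobox genes Meis2 (1.72 and 1.31) and Meis1 (1.37 and 1.24). Rdh10, which makes retinal from retinol, was lower in both (-1.70 and -1.90). The other leading genes downward were Rarres2 (-1.67) and Rbp4 (-1.60) in wild-type and Tgm2 (-2.12) and Nr2f1 (-1.69) in reporter cells.

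In enterocyte-like cells 6 of 42 genes were higher (7.71% of all genes) and 10 lower (29.1%) than in other epithelial cells, with a median of -0.01. Dhrs9 (3.88) and Rdh16 (2.69), which oxidize retinol, and Rbp2 (2.53), the retinol carrier of absorptive cells, were higher. Rbp4 (-3.12), Fabp5 (-2.97), a carrier of fatty acids and retinoic acid, and Aldh1b1 (-1.93) were lower. Goblet-like cells had 1 of 45 genes higher (10.1% of all genes), Rbp4 (3.78), and 15 lower (12.6%), led by Akr1b8 (-3.45), Rdh16 (-2.80) and Rbp2 (-2.77), with a median of -0.44. Transit-amplifying-like cells had 8 of 42 higher (11.8% of all genes), led by Rdh1 (2.48), Lrat (1.72), which esterifies retinol, and Aldh1b1 (1.71), and 8 lower (11.3%), led by Rbp2 (-2.93). Krt36-led cells had 3 of 40 higher (1.98% of all genes), Adh1 (2.14), Aldh1l1 (1.77) and Aldh2 (1.21), and 7 lower (11.8%). Enteroendocrine-like cells had 10 of 45 higher (25.7% of all genes) and 15 lower (16.4%), and the highest ratio was that of Stra6 (5.33), the cellular retinol importer, with a mean of 0.442 against 0.00125.

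Across the 15 named wild-type classes the genes did not follow one pattern. Pearson's r of log2 class means between pairs of 8 genes ran from -0.18 for Aldh1a2 with Cyp26b1 to 0.61 for Cyp26b1 with Rarg, and was 0.30 for Aldh1a1 with Aldh1a2, 0.30 with Aldh1a3, and 0.24 for Aldh1a2 with Aldh1a3. Among 15043 genes, those most like Aldh1a1 were Ccdc8 (0.863), Daam2 (0.854) and Fkbp14 (0.847), and most like Aldh1a2 were Gm37720 (0.928), Adamtsl4 (0.916) and Gm42486 (0.910). Aldh1a3 was closest to Frzb (0.813), Plpp7 (0.783) and Manea (0.746), and Dhrs3 to Tgfbr2 (0.909), Thsd7a (0.863) and Cldn34c1 (0.853). Cyp26b1 was closest to Gja5 (0.869), Gm42633 (0.869) and Cytl1 (0.862). For the receptors these were Rab11b (0.873), Mindy2 (0.870) and Fgf11 (0.870) for Rarb, Spred1 (0.912), Smarca2 (0.908) and Emp3 (0.906) for Rarg, and Gpr137b (0.716), Cyfip1 (0.716) and Emp1 (0.706) for Rxra. The 15 classes come from 1 library and share its depth and free RNA, and the smallest holds 20 cells.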

How the data were processed

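Transcripts of single sorted cells of mouse colon were counted in 2 libraries. Reads were mapped to mm10 by the authors in Cell Ranger, and filtering and SCTransform were done in Seurat (3.1, R 3.6.2), per the methods of the study and the labels. The score values as deposited are UMI counts corrected to a common depth, which was read from the values: they are whole numbers whose totals per cell span a narrow range. The deposited natural log values equal ln(1 + corrected count). Sequenced depth was thus not recovered, and a value above 0 need not be a molecule of that cell.

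Cells were clustered again from the natural log values with Seurat (5.3.0, R 4.3.3), on 3000 variable features less the listed and pathway genes (2976 and 2980 used), 30 principal components and resolutions of 0.45 and 0.3, which gave 21 and 7 clusters. Marker lists named clusters by a log2 fold of at least 1 with 3 markers in at least 10% of cells. Fibroblast types were named by a smaller fold, 1.25, over the mean of the fibroblast clusters, also with 3 markers. This scoring, and the rule for fibroblast types, was set after clusters were seen. In the wild-type library 583 cells and 130 fibroblasts stayed without a type. Genes with a mean of at least 0.02 in either class were compared, past 2-fold being the call. Scrublet called 7 and 5 doublets, too few for the caller to have worked, and these were kept. Python 3.11.15, numpy 2.4.6, scipy 1.17.1, pandas 2.3.3, scanpy 1.11.5 and matplotlib 3.10.9 were used, with positions from GENCODE M21. The genes, the pathway list and the markers were chosen with earlier results of these data known. All 9 genes are named in every class, from the pathway list up to 3 genes with the largest fold per comparison and direction, and the 3 most similar genes by correlation. The values of 1 gene that this rule names are not reported here. Aldh1a7, Lgr5 and the leading genes of named clusters were named after their values were seen.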

Additional observations from a re-analysis of the deposited data

How the results depend on the processing

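No paired analysis was possible because each group is 1 library. Of 655 values of 62 single ratios under the alternatives, 568 stayed within the limits of the main value and 87 moved, in 34 ratios, and none of those past 2-fold changed sign. The count of genes past 2-fold between compartments, and that summed over the epithelial classes, stayed within 1.5 times of the main count under each alternative run, but the lower calls of all epithelial classes together went from 6 to 3 without cells above 10% mitochondrial counts and to 4 on thinning. In the wild-type library the genes past 2-fold between CTFs-like and CBFs-like cells went from 4 to 2 on thinning to 1000 corrected counts and with a pseudocount of 0.1, where Cyp26b1 and Rarb, whose thinned means lie below the pseudocount, were lost. In the reporter library that count went from 3 to 1 with the listed genes kept in the clustering, because a cluster of 236 cells changed class. Between CBFs2-like and CBFs1-like reporter cells the count of 2 became 1 at resolution 0.8, with the listed genes kept in, with pooled sums and without the cluster led by Nrg1 and Cxcl9 (chosen after seeing the data), and 0 on thinning and with a pseudocount of 0.1. Pairs of gene and epithelial or fibroblast class, over both libraries, with at least 10% of cells above 0 fell from 34 to 3 on thinning, an alternative added after seeing the data, so shares depend on the depth of the corrected scale. Class means near 0.02 rest on few counts, and no value covers differences between mice.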
